A study of Homo sapiens with 5 samples.

Results

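The transcripts of 10 genes of one signalling axis, the kinase JAK2, the factors STAT5A and STAT5B, the kinases PIM1, PIM2 and PIM3 and the feedback inhibitors CISH, SOCS1, SOCS2 and SOCS3, were followed in leukemia cells given a GSK-3 inhibitor. The genes were chosen by name, with earlier results of these data known, the fall of PIM2 included. For each, the array probe that the platform annotation assigned to that gene alone was read. All 10 had exactly 1 such probe, out of 18417 genes measured in this way. The cells were RS4;11 (labelled RS4.11), a human acute leukemia line that carries an MLL gene rearrangement. For 3 arrays the cells had been kept for 20 h with 10 uM SB216763, which blocks the kinase GSK-3, and for 2 control arrays with the solvent DMSO for the same time. All values below are log2 expression values, and all differences are SB216763 minus control. The labels do not say whether the arrays stem from separate cultures, so the p-values cover the spread between these arrays alone, and that spread may be technical.

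JAK2 is a kinase bound to the inner end of cytokine receptors. When a cytokine such as interleukin-3 or thrombopoietin brings receptors together, JAK2 phosphorylates STAT5A and STAT5B, which move to the nucleus and switch on genes through a palindromic DNA motif, TTCNNNGAA. CISH and the SOCS genes are classical targets whose proteins then shut the receptor down, and the PIM genes encode survival kinases that need no activating phosphorylation, so that their activity follows largely from how much of them is made. In blood cells the axis supports survival and growth, and it is often overactive in leukemia.

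PIM1 and PIM2 fell after SB216763, STAT5A rose, and the other 7 genes did not pass the test. PIM2 was 2.18-fold lower and PIM1 1.90-fold lower, while STAT5A was 1.31-fold higher. CISH, the feedback gene often used as a readout of STAT5, differed by -0.01 (SE 0.09). The arrays measured RNA only, so the activity of STAT5 and of the PIM kinases was not tested. The 3 genes past the threshold, an adjusted p under 0.05 by limma, stand beside 13.1% of all 18417 genes. Lower calls made up 5.92% of all genes and higher calls 7.21%. Leaving out control replicate 1 or control replicate 2 ended all 3 calls by limma, with 3 and 4 of the 10 genes at an unadjusted p under 0.05. Over all 18417 genes the same steps left 1 and 0 calls, with 3603 and 3960 genes at an unadjusted p under 0.05. The groups did not overlap for 7 of the 10 genes, where this held for 41.4% of all genes. The median difference of the 10 genes was 0.01, and that of all genes was 0.00.

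The arrays were alike in scale, with medians between 6.77 and 6.84, and arrays correlated across probes with an r of 0.992 to 0.996 among SB216763 arrays, 0.994 between the control arrays and 0.989 to 0.991 between groups. All 10 genes lay above background on all 5 arrays, background being the 95th percentile of 341 olfactory receptor genes on each array, 5.98 to 6.19. RS4;11 is generally classed as a B cell precursor line, yet 7 of the 14 measured B cell precursor markers were above background on no array (VPREB1, DNTT, RAG1, RAG2, CD22, CD24 and CD34), while PAX5, TCF3, CD79B, IGLL1 and VPREB3 were above it on all 5. All 12 measured myeloid markers were above background on all 5 arrays. Of all 18417 genes, 12071 were above it on all 5 arrays and 5270 on none. Some of these markers lay close to background, such as MPO at 6.10 to 6.54 and CD14 at 6.14 to 6.59, while LYZ read 11.86 to 12.78. Among the B cell precursor markers above background on all 5 arrays, VPREB3 read 6.14 to 6.37 and TCF3 9.42 to 9.57. PAX5 read 6.55 to 6.82, CD79B 6.56 to 6.87 and IGLL1 7.80 to 8.48. CD79A was above background on 4 arrays and BLNK on 3. Of 14 T and NK cell markers 5 were above background throughout, and of 10 erythroid and megakaryocyte markers 3 were. Limma called 1 of the 14 B cell precursor markers, BLNK, as higher with SB216763. The rise of BLNK was at least 1.53-fold, since no control array was above background. Of the 14 T and NK cell markers it called 2 higher, NKG7 and CD4, by 0.88 and 0.69, and 12 did not pass. On that list 8 genes, CD3D, CD3E and CD3G among them, were above background on no array. Limma called 0 of the 10 erythroid and megakaryocyte markers, with 0 at an unadjusted p under 0.05. The shares over all genes were 7.21% called higher, 5.92% called lower and 26.5% at an unadjusted p under 0.05. Which cells the culture held was not tested. In RNA from a whole culture, fewer cells that express a gene and less RNA per cell cannot be told apart.

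**Figure D1:**
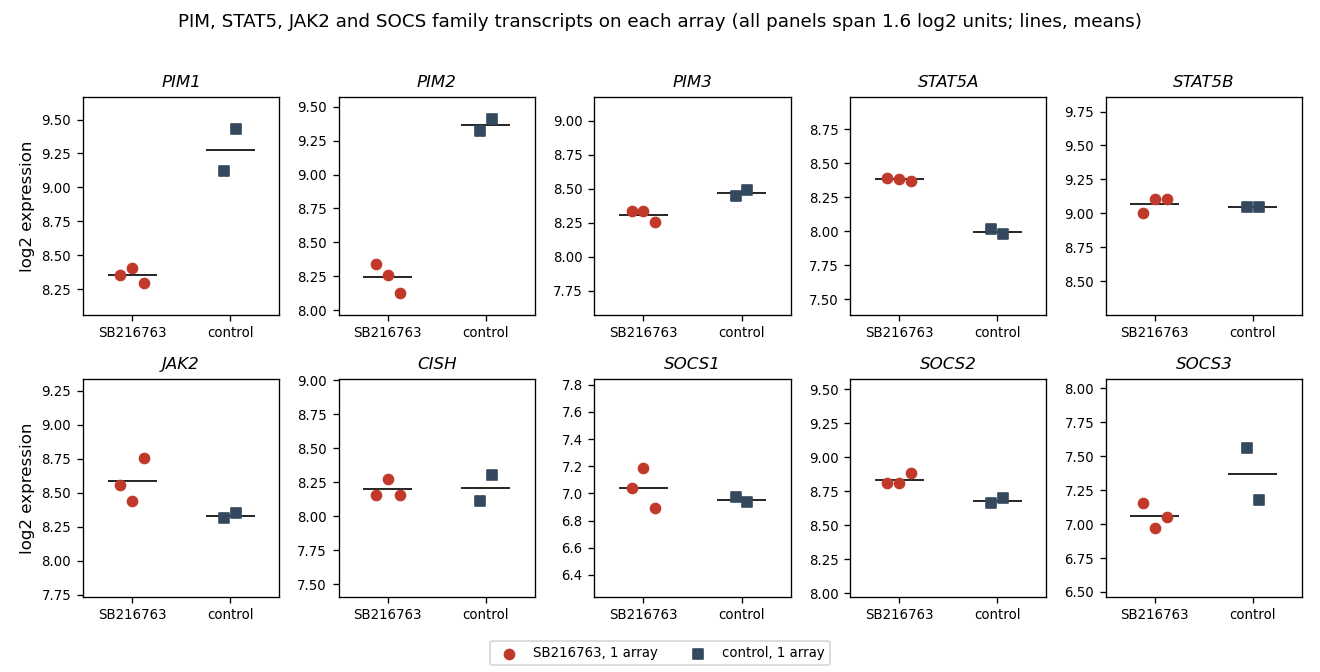
Log2 expression of each of the 10 genes on each array, SB216763 on the left of each panel and control on the right; a point is 1 array, a line the group mean, and every panel spans the same number of log2 units. The points of PIM1 and PIM2 lie far apart between groups, those of STAT5A less so, and those of CISH, SOCS1 and STAT5B overlap.

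JAK2 transcript was 8.56, 8.44 and 8.75 on the SB216763 arrays, against 8.31 and 8.35 on the control arrays. Each SB216763 array was above both controls, but the SB216763 arrays spread over more than the gap to the controls, which was 0.09. The difference was 0.25 (SE 0.10, 95% interval 0.01 to 0.50), with an unadjusted p of 0.0433 and an adjusted p of 0.172 by limma. An unadjusted p under 0.05 was found for 26.5% of all genes.

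STAT5A, the factor that JAK2 activates, read 8.39, 8.38 and 8.37 on the SB216763 arrays and 8.02 and 7.98 on the control arrays. The SB216763 arrays lay within a narrow band, and the lowest of them was 0.35 above the higher control. STAT5A rose by 0.38 (SE 0.07, 95% interval 0.21 to 0.56), with an adjusted p of 0.0151 by limma. The call was lost without control replicate 1 (adjusted p = 0.103), without control replicate 2 (adjusted p = 0.107) and without SB216763 replicate 1 (adjusted p = 0.0807), where the differences were 0.41, 0.36 and 0.38.

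STAT5B, a close relative of STAT5A encoded beside it, was 9.0, 9.11 and 9.10 with SB216763 and 9.05 on both control arrays. The groups overlapped, and the difference was 0.02 (SE 0.08, 95% interval -0.16 to 0.20, adjusted p = 0.906), with a negative sign after centring the arrays on their medians and with array weights. In the RefSeq table of GRCh38.p14, STAT5A spans chr17:42287439-42311943 and STAT5B chr17:42199177-42288370, so the annotated genes overlap at their facing ends. How far a probe of one gene takes up RNA of the other was not tested, as probe sequences were not used here. The difference between the responses of STAT5A and STAT5B was not tested either.

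PIM2, a kinase that promotes survival and protein synthesis in lymphoid and myeloid cells, had the largest difference of the 10 genes. It was 8.34, 8.26 and 8.13 on the SB216763 arrays and 9.32 and 9.41 on the control arrays. The highest SB216763 array lay 0.98 below the lower control. PIM2 fell by 1.12 (SE 0.09, 95% interval -1.34 to -0.91, adjusted p = 0.000670 by limma), which placed it at position 32 from the lowest of all 18417 genes.

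PIM1, the founding member of the family and first found as a site of retroviral insertion in mouse lymphomas, followed closely. Its values were 8.36, 8.40 and 8.30 with SB216763 and 9.12 and 9.43 in controls. The SB216763 arrays were close together, and the lower control was still 0.72 above the highest of them. PIM1 fell by 0.93 (SE 0.11, 95% interval -1.17 to -0.68, adjusted p = 0.00228), at position 74 of the same order.

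PIM3, the third family member, was 8.33, 8.33 and 8.25 with SB216763 and 8.45 and 8.49 in controls. All 3 SB216763 arrays were below both controls, by a gap of 0.11. The difference was -0.16 (SE 0.08, 95% interval -0.34 to 0.02, adjusted p = 0.232), which did not pass.

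Like nearly all calls on the array, those of PIM1 and PIM2 were lost without either control array. Without control replicate 1 both had an adjusted p of 0.0572, with differences of -1.08 for PIM1 and -1.17 for PIM2. Without control replicate 2 the adjusted p was 0.0611 for PIM1 and 0.0604 for PIM2, with differences of -0.77 and -1.08. Leaving out any of the SB216763 arrays kept both calls, with adjusted p-values of at most 0.0143 for PIM1 and 0.00455 for PIM2. Without moderation of the variances the adjusted p was 0.0857 for PIM1 and 0.0544 for PIM2.

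Within the family, the mean of PIM1 and PIM2 minus PIM3 ran from -0.04 to 0.01 over the SB216763 arrays and from 0.77 to 0.93 over the control arrays. This contrast, chosen after the values were seen, shifted by -0.86, with an exact two-sided permutation p of 0.2, the smallest that 3 against 2 arrays can give in 10 arrangements. PIM2 minus the mean of PIM1 and PIM3 ran from -0.15 to -0.01 with SB216763 and from 0.45 to 0.53 in controls, a shift of -0.58 with the same smallest exact permutation p of 0.2. The arrays of each contrast did not overlap between groups, and the design cannot take either p below the threshold. Since PIM2 was known to have fallen when the genes were chosen, its place in the family is a description.

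**Figure D2:**
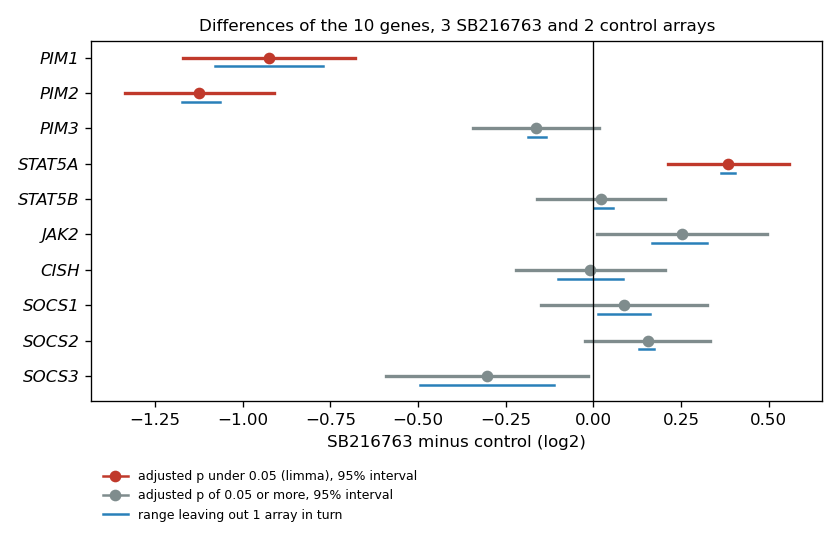
Difference of each of the 10 genes, SB216763 minus control in log2 units, with its 95% interval from limma; red marks an adjusted p under 0.05, and the thin blue line below each gene is the range of the difference when 1 of the 5 arrays is left out in turn. PIM1 and PIM2 stay between -1.17 and -0.77 over these ranges, STAT5A between 0.36 and 0.41, and CISH runs across 0, from -0.10 to 0.08.

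The feedback genes showed no common direction. CISH, whose protein competes with STAT5 for receptor docking sites, was 8.16, 8.28 and 8.16 with SB216763 and 8.11 and 8.30 in controls. The SB216763 values lay between the control values. The difference of -0.01 (SE 0.09) had a 95% interval of -0.22 to 0.20 and an adjusted p of 0.971, and it was 0.08 without control replicate 2.

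SOCS1, which binds JAK kinases and blocks them directly, was 7.04, 7.19 and 6.89 with SB216763 and 6.97 and 6.93 in controls. The control values fell inside the range of the SB216763 values, and the difference was 0.09 (SE 0.10, 95% interval -0.15 to 0.32, adjusted p = 0.672). SOCS2, a regulator of growth hormone signalling, read 8.81, 8.81 and 8.88 with SB216763 and 8.66 and 8.70 in controls. Here the groups were apart by 0.11, and the difference of 0.16 (SE 0.08, 95% interval -0.02 to 0.33) had an adjusted p of 0.250.

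SOCS3, the inhibitor of interleukin-6 family and G-CSF receptor signalling, was 7.16, 6.97 and 7.05 with SB216763 and 7.56 and 7.17 in controls. One control lay well above the rest, and the other was only 0.02 above the highest SB216763 array. The difference was -0.30 (SE 0.12, 95% interval -0.59 to -0.02, unadjusted p = 0.0409, adjusted p = 0.166). It was -0.11 without control replicate 1 and -0.50 without control replicate 2, so the size of this difference rests on which control is used.

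Promoter sequence was looked up in RefSeq (GRCh38.p14) for the genes on which these results turn, as windows from 250 bases before to 50 bases after each annotated start. Of the 10 genes 9 had an entry and SOCS2 had none. The motif TTCNNNGAA, whose reverse complement is itself, occurred in 7.66% of all 35116 promoter windows. CISH held 4 matches, as did windows of only 5 other genes. None of the windows of the other 8 genes held a match, PIM1, PIM2 and STAT5A included, which says only that these letters are absent from these windows. The CISH stretch is shown because it carries the STAT motif 4 times in a gene whose transcript differed by -0.01; it lies at chr3:50611775-50612024 on the minus strand, with matches to TTCNNNGAA in capitals, beginning 241, 230, 129 and 112 bases before the start.
CISH: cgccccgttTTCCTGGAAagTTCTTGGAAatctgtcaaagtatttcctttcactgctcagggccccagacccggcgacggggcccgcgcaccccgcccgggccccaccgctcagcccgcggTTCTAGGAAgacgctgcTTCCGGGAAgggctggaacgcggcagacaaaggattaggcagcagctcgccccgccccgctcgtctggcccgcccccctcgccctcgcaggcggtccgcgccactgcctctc

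The promoters of the PIM pair that fell were searched with further motifs, chosen after the sequences were read, on both strands. These were CACGTG, the E-box bound by MYC, which 7.26% of windows held, CTTTGAA and CTTTGAT, forms of the TCF/LEF motif found in 4.43% and 2.62%, and ATGCAAAT, the octamer bound by OCT factors, found in 1.77%. PIM2 held the octamer at 2 places, beginning 160 bases before the start as ATTTGCAT, its reverse complement, and 123 bases before it as ATGCAAAT. CTTTGAT occurred once in PIM2, 65 bases before the start, as its reverse complement ATCAAAG. PIM1 held none of these motifs. CTTTGAA and TTCNNNGAA share the ending GAA, and no window of the 9 genes held CTTTGAA. The sequences are shown so that the pair can be compared, PIM1 at chr6:37169902-37170151 on the plus strand and PIM2 at chrX:48919025-48919274 on the minus strand, with the octamer and CTTTGAT matches of PIM2 in capitals. PIM1 has 79.6% G and C over these 250 bases and PIM2 61.2%.
PIM1: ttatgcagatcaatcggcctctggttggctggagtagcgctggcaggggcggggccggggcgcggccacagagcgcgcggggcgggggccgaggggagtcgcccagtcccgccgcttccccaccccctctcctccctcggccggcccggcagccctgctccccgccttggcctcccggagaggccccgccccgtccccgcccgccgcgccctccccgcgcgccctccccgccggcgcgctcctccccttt
PIM2: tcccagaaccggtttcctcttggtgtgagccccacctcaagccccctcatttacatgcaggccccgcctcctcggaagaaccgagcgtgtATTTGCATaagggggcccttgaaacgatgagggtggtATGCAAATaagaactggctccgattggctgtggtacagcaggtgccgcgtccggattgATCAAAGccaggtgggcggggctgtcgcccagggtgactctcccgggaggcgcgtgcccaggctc

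Across the array, 1310 tested genes had at least 1 TTCNNNGAA in a listed promoter window. Of these 6.87% were called higher and 5.42% lower, against 7.41% and 6.31% of the 12929 genes without a match. The medians were 0.00 in both. Of the 5 other genes with 4 matches, 3 were measured. BCL6, ZNF112 and ZNF225 differed by 0.74, 0.05 and 0.23, with BCL6 and ZNF112 above background on no array.

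The genes whose profile over the 5 arrays came closest to that of a called gene were ranked by root mean square difference, after each gene was centred on its own mean, among 12070 genes above background throughout. For PIM2 these were TFDP2, a partner of E2F factors, at 0.0328 log2 units, the uracil-DNA glycosylase UNG at 0.0531 and SPIN4 at 0.0553. For PIM1 they were the histone gene H2AC4 at 0.0669, the amino acid transporter SLC38A5 at 0.0683 and the transcription factor WT1 at 0.0742. H2AC4 has near-identical copies, so which copy was measured is uncertain. For STAT5A they were ALDH4A1, an enzyme of proline breakdown, at 0.0130, the translation factor subunit EIF3F at 0.0150 and FKBP15 at 0.0165. With 5 arrays in 2 groups, a small value requires a similar group difference, such as -1.16 for TFDP2 beside -1.12 for PIM2.

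Upstream of JAK2, 21 cytokine receptor genes were measured, and their median difference was 0.03. Of these 1 fell, 4 rose and 16 did not pass, where 5.92% of all genes were called lower and 7.21% higher. IL3RA, the interleukin-3 receptor subunit and a classical starting point of STAT5 activation, was 7.44, 7.60 and 7.43 with SB216763 and 8.99 and 8.84 in controls. It fell by 1.43 (SE 0.09, adjusted p = 0.000457), 2.70-fold. CSF2RB, the signalling chain that IL3RA shares with other receptors, differed by 0.03 (SE 0.09). CSF3R, the G-CSF receptor, rose by 1.23 (SE 0.11). IL10RA and IL10RB, the interleukin-10 receptor chains, rose by 1.20 (SE 0.10) and 0.66 (SE 0.09). IL6ST, the shared chain of interleukin-6 family receptors, was 0.46 higher (SE 0.12, adjusted p = 0.0456), and was picked with that value known. Its control arrays read 6.20 and 6.15, and only 1 of them was above background, so the size of this rise is uncertain. The IL6ST call was lost after quantile normalization (adjusted p = 0.0813 by limma) and with each array centred on its median (adjusted p = 0.0622).

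CSF3R is itself one of the myeloid markers. Of 12 measured, 4 rose (LYZ, CD68, CSF3R and TYROBP), 0 fell by limma and 8 did not pass, with 5 at an unadjusted p under 0.05. Over all genes, limma called 7.21% higher and 5.92% lower, and 26.5% had an unadjusted p under 0.05. The list's mean log2 level was 8.46 to 8.63 over the SB216763 arrays and 8.20 on both control arrays. MPO and ELANE, its defining granulocyte precursor markers, were above background on all arrays and differed by -0.23 and -0.05. MPO was only slightly above it, at 6.10 to 6.54, and ELANE read 7.81 to 8.18. The part of myeloid markers in the receptor differences was not tested. Without either control array limma called 0 receptors, with 5 and 6 at an unadjusted p under 0.05.

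Of 10 other measured JAK, STAT and SOCS genes, limma called 2 higher and 0 lower, with 5 at an unadjusted p under 0.05 and a median of 0.17. The other 8 did not pass. Among all genes limma called 7.21% higher and 5.92% lower, with 26.5% at an unadjusted p under 0.05 and a median of 0.00. TYK2, a JAK kinase, rose by 0.45 (SE 0.08, adjusted p = 0.00989) and STAT3, which answers to interleukin-6 and G-CSF, by 0.39 (SE 0.08, adjusted p = 0.0158). JAK1 differed by 0.22 (SE 0.08, adjusted p = 0.134) and SOCS5 by 0.26 (SE 0.09, adjusted p = 0.0954). JAK3 and STAT4 were above background on no array. Limma called 0 of these genes without control replicate 1, without control replicate 2 and without SB216763 replicate 1, with 2, 4 and 3 at an unadjusted p under 0.05.

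Among 16 measured phosphatases and other modulators of JAK-STAT signalling, limma called 6 higher and 0 lower, with 9 at an unadjusted p under 0.05 and a median of 0.23. The other 10 did not pass. The same figures over all genes were 7.21% higher, 5.92% lower, 26.5% at an unadjusted p under 0.05 and a median of 0.00. PTPRC, which encodes CD45, a phosphatase of JAK and SRC family kinases, was 9.15, 8.88 and 9.10 with SB216763 and 8.26 and 8.36 in controls, and rose by 0.73 (SE 0.10, adjusted p = 0.00446). PTPN2, a nuclear and cytoplasmic phosphatase of STAT and JAK proteins, rose by 0.48 (SE 0.10), the SUMO ligase PIAS1 by 0.40 (SE 0.08) and the ubiquitin ligase CBLB by 0.43 (SE 0.08). PTPN6, which encodes SHP-1, differed by 0.05 (SE 0.08). The list also holds the adaptors SH2B1, SH2B2, STAM and STAM2, which can promote signalling. None of these passed, with differences of 0.25, -0.04, 0.15 and 0.40. The phosphatase gene PTPN11 differed by -0.01 (SE 0.10). The count was 1 without SB216763 replicate 1, and 0 by limma without either control array, with 6 and 8 at an unadjusted p under 0.05.

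**Figure D3:**
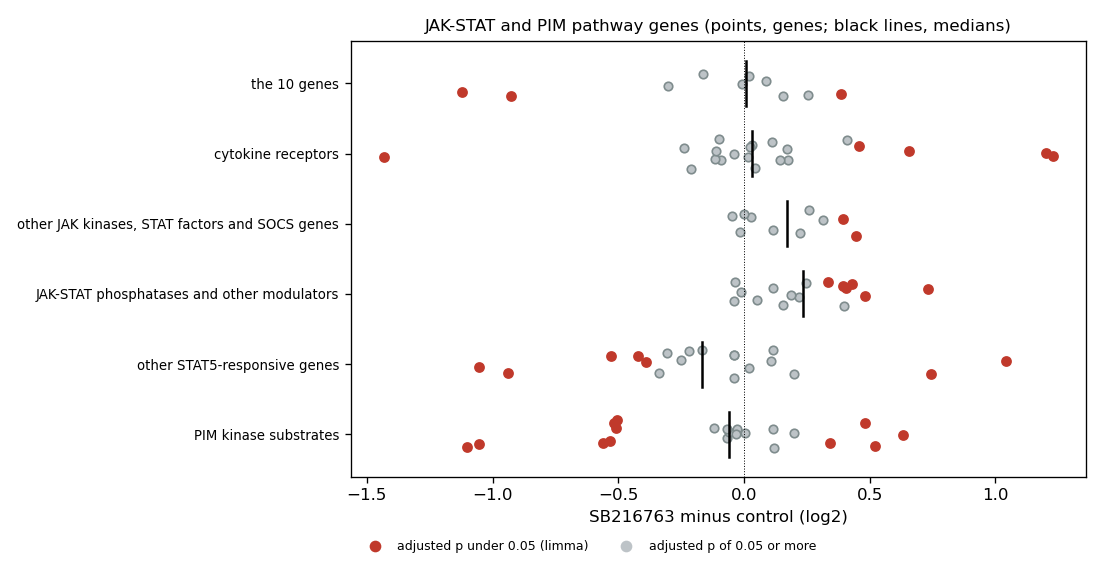
Differences, SB216763 minus control on the log2 scale, of the 10 genes and of 5 lists of pathway genes; a point is 1 gene, red marks an adjusted p under 0.05 by limma, and a black line is the median of the list. Called genes of the modulator list all lie to the right of 0, and those of the STAT5-responsive and PIM substrate lists lie on both sides.

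Of 19 other genes reported to respond to STAT5 in some cell types, the median was -0.17, and 5 fell, 2 were called higher and 12 missed the threshold. Lower calls made up 5.92% of all genes and higher calls 7.21%. MYC, a growth-promoting transcription factor that PIM kinases also stabilise, was 9.74, 9.72 and 9.80 with SB216763 and 10.75 and 10.86 in controls, and fell by 1.05 (SE 0.08, adjusted p = 0.000588). EGR1, an immediate early factor, fell by 0.94 (SE 0.09). BCL2, CCND3 and NFIL3, a survival gene, a cyclin and a transcription factor named after their values were seen, fell by 0.39, 0.42 and 0.53. IGF1, a STAT5 target best known in liver, rose by 1.04 (SE 0.08, adjusted p = 0.000660). BCL6, which STAT5 represses in B cells, passed the test as higher, yet no array had it above background. The survival genes BCL2L1 and MCL1 differed by 0.02 (SE 0.08) and -0.17 (SE 0.09), and the cyclin gene CCND2 by -0.04 (SE 0.09), none of them past the threshold. Without either control array limma called 0, with 9 and 7 at an unadjusted p under 0.05.

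Of 21 genes whose proteins are described as PIM substrates, the median was -0.06, and 7 fell, 4 rose and 10 missed the threshold. For all genes these shares were 5.92% lower and 7.21% higher. CDC25A, the phosphatase that starts S phase, fell by 1.10 (SE 0.08, adjusted p = 0.000533), 2.15-fold. EIF4EBP1, the translation repressor 4E-BP1, fell by 0.56 (SE 0.09) and SKP2, which marks p27 for degradation, by 0.52 (SE 0.08). CDC25C, CDKN1B and CHEK1, cell cycle regulators named after their values were seen, fell by 0.53, 0.51 and 0.51, and MYC belongs to this list too. EIF4B, TSC2, CXCR4 and GSK3B, named after their values were seen, rose by 0.48, 0.52, 0.63 and 0.34. BAD, the cell death protein that PIM kinases inactivate, differed by -0.12 (SE 0.08, adjusted p = 0.440). The count was 7 without SB216763 replicate 1, and 0 by limma without either control array, with 11 at an unadjusted p under 0.05 both times.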

How the data were processed

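RNA of 5 samples labelled RS4.11 was measured on Affymetrix whole-transcript arrays. The authors deposited 1 table of log2 values for 33297 probes, made with Affymetrix Expression Console per the submitters' processing notes; that the values are log2 follows from their range, 1.95 to 14.84. Neither the software version nor the summarisation or genome build is stated in those notes. No further normalization was applied.

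Of the probes, 19460 had 1 gene symbol in the platform annotation, 1754 several and 12083 none; the brightest probe per gene was kept, which left 18417 genes. Differences were tested two-sided with lmFit and eBayes (limma 3.58.1, R 4.3.3), and a gene was called at a Benjamini-Hochberg adjusted p under 0.05, adjusted over the whole table. In 10 simulations of 18417 genes, 200 genes were changed, and the noise was normal and independent, with the moderated variances of the fit. There 93.1% of 1.5-fold and 99.9% of 2-fold changes were recovered. Of the calls 7.72% were unchanged genes, above the share of 0.05 that the threshold aims at. The data gave 2418 calls, and noise shared between genes was not simulated, so these shares may not hold for the data. Contrasts within the PIM family used exact permutation tests (SciPy 1.17.1).

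Named were the 10 genes, up to 4 genes per list with the smallest p, and 3 like genes for each of 3 called genes; others are named as chosen after their values were seen, or to describe a list. Genes, lists and motifs were chosen with earlier results of these data known. Genes on a list that no single-gene probe covered are not analysed here. Alternatives were a filter on dim genes, 2 scalings, the mean of probes, 2 variance models, array weights, a block for replicate number, leaving out each array, and testing all probes singly. The number of arrays limits the precision.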

Additional observations from a re-analysis of the deposited data

How the results depend on the processing

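The number of called genes, 2418, was 251 without moderation and 4720 with array weights. It ran from 0 to 2859 when 1 array was left out, with 993 and 1606 without SB216763 replicates 1 and 3, and 1 and 0 without control replicates 1 and 2. Of the 10 genes, the 3 calls became 1 without moderation, where PIM1 and PIM2 had adjusted p-values of 0.0857 and 0.0544, and 0 to 3 with 1 array left out. Without moderation the counts were 1 for the cytokine receptors, 0 for the other JAK, STAT and SOCS genes, 0 for the phosphatases and other modulators, 2 for the STAT5-responsive genes and 2 for the PIM substrates, with 6, 4, 6, 8 and 11 at an unadjusted p under 0.05. Array weights gave 4 for the JAK, STAT and SOCS genes and 10 for the modulators, and testing all probes singly gave 3 modulators. With 1 array left out the 5 lists ran from 0 to 6, 0 to 2, 0 to 8, 0 to 7 and 0 to 11. With each array centred the calls split into 1146 higher and 1383 lower, where the deposited scale gave 1328 higher and 1090 lower.

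With the replicate number as a block, limma called 1830 genes, 2 of the 10 genes, 1 of the JAK, STAT and SOCS genes and 3 modulators, and STAT5A had an adjusted p of 0.0510. Deviations from the group means, compared between arrays of the same number, had an r of -0.05 and -0.10 across genes. With 2 control arrays their deviations mirror each other, so these values cannot decide whether arrays of the same number belong together.

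The sign of CISH turned to 0.011 under the block and without SB216763 replicate 1 or 3, and to 0.085 without control replicate 2. That of STAT5B turned to -0.014 with centred arrays and -0.038 with array weights. PIM2 minus the mean of PIM1 and PIM3 shifted by -0.62 to -0.54 with 1 array left out. The cause of these changes was not tested; leaving out an array leaves fewer arrays, and with 1 control array that array is assumed to vary like the SB216763 arrays.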
